A study of Rattus norvegicus with 6 samples.

Results

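The complement genes measured in the renal cortex of rats were C3, C2, Cfb, Cfi, C1s, C1r, Serping1, Cd55 and Cd59, 9 genes chosen by name. Their probes were found through the RefSeq accession printed beside each spot, which gave 15 probes of the 43473 tested, and the 9 genes stand among 12269 named genes tested. Each gene had 1 to 3 probes, and every one of the 15 probes was well above background on all 6 arrays. Cd59 is listed as Cd59b in the gene table used to name probes, with Cd59 as an older symbol.

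The animals were male Sprague-Dawley (Crl:CD(SD)) rats bought at an age of 5 weeks. A group of 3 rats was given phenolphthalein, a pH indicator dye once sold as a laxative, at 1000 mg/kg/day for 4 weeks, and a group of 3 rats was given corn oil, the vehicle, for the same 4 weeks. The labels name no genetic modification in either group. RNA from kidney cortex, where glomeruli and most proximal tubules lie, was labelled with Cy3 and hybridised to 1 Agilent array per sample.

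Complement is a protein cascade of innate immunity that marks targets for clearance and can perforate membranes. In the classical pathway, C1q and the proteases C1r and C1s form the C1 complex, which cleaves C4 and C2. The alternative pathway runs through factor B (Cfb) and properdin (Cfp), and both meet at C3, the most abundant complement protein of plasma. Most circulating complement is made by the liver, but kidney tubule cells, mesenchymal cells and macrophages also transcribe complement genes, and surface inhibitors such as Cd55 and Cd59 protect the host's own cells.

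Values are log2 of the processed spot intensity relative to the 75th percentile of the array, so 0 is that percentile and a difference of 1 is a doubling. A level of one probe cannot be set against the level of another probe. Between 64.8% and 72.0% of the probes of an array were well above background, and 0 were saturated. The lowest share was that of vehicle replicate 2, and the next lowest was 69.4%, in phenolphthalein replicate 1. Vehicle replicate 2 was also the array with the highest values of C3, C2 and Cfb. All vehicle arrays lay on 1 slide, phenolphthalein replicate 1 on another and phenolphthalein replicates 2 and 3 on yet another, so slide and group cannot be told apart. Nothing ties an animal of one group to the animal of the same number in the other. All 8 proximal tubule markers were well above background on all 6 arrays, with summed signals (relative to the 75th percentile, linear scale) of 1055 to 1126 with phenolphthalein and 1091 to 1103 with vehicle.

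No complement gene passed the adjusted threshold of 0.05. Among all 43473 probes 0% were called higher and 0% lower (limma, smallest adjusted p = 0.221), so the members were described by their values and by the unadjusted p. C3, C2 and Cfb had lower means with phenolphthalein, by 0.48 to 0.66 on the log2 scale for the probe that stood for each gene. The means of C1r, C1s, Cfi, Serping1 and Cd59 were 0.03 to 0.19 higher, and Cd55 was 0.12 lower by its brighter probe. At an unadjusted p under 0.05 1 of the 9 genes was lower and 0 were higher, where 6.01% of all named genes were lower and 4.09% higher. Counted by probe, 3 of 15 were lower and 0 higher at that level, against 4.91% and 3.91% of all probes, but probes of 1 gene share its RNA and are not separate evidence. The median log2 fold change of the 9 genes was 0.03, against -0.02 over all named genes. Lower values, whatever their p, were seen for 4 of the 9 genes and 6 of the 15 probes, against 55.6% of all named genes and 53.5% of all probes.

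**Figure D1:**
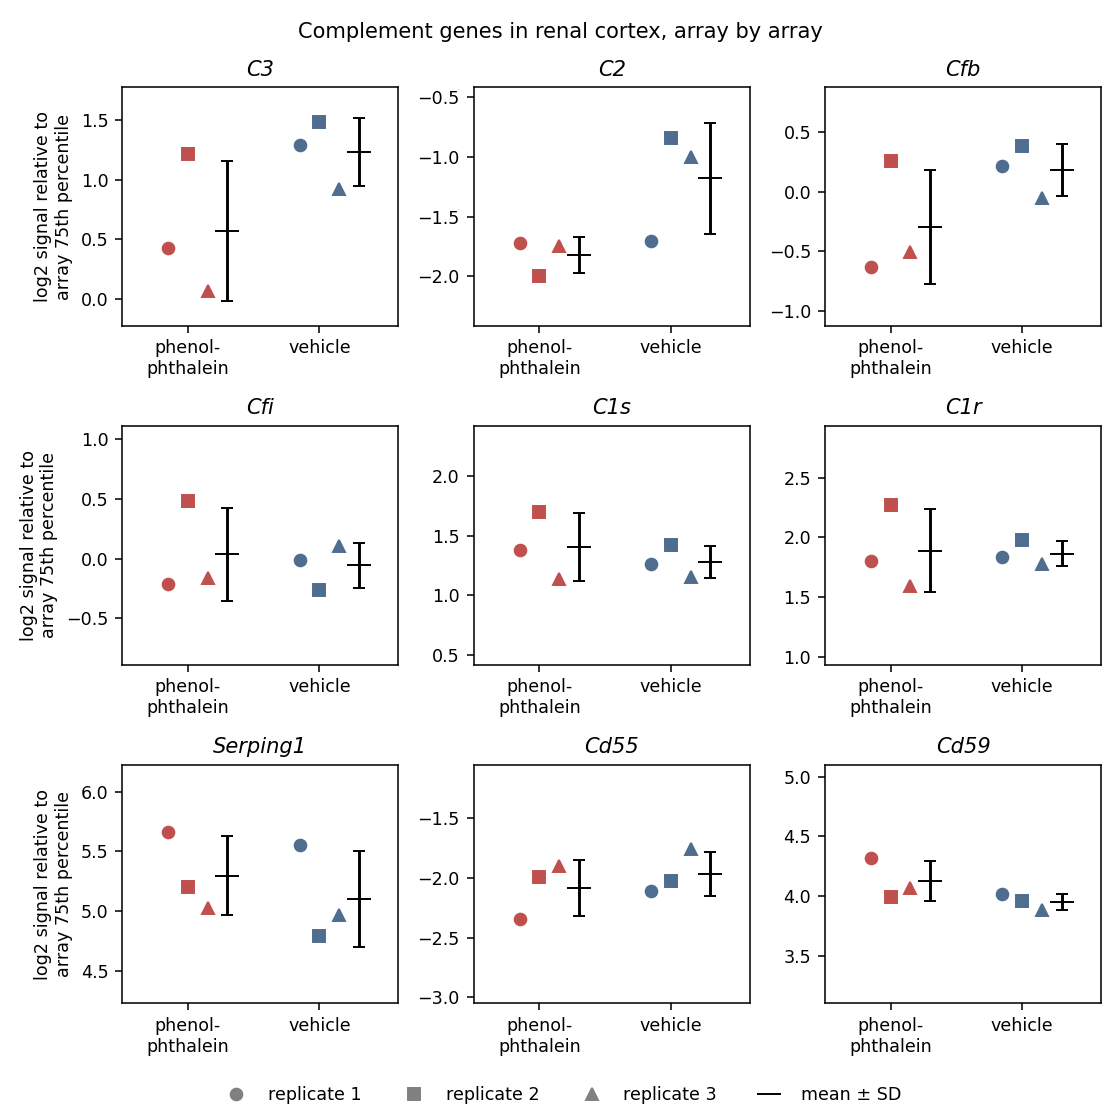
Log2 signal of the 9 complement genes relative to each array's 75th percentile, phenolphthalein on the left and vehicle on the right of each panel, 1 symbol per array and the mean ± SD beside it; every panel spans 2 log2 units. C3 and Cfb are low in phenolphthalein replicates 1 and 3 and not in replicate 2, while C2 is low in all 3 phenolphthalein arrays and in vehicle replicate 1.

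C3 encodes the protein whose cleavage all complement pathways share. Its single probe read 0.43, 1.21 and 0.07 in phenolphthalein replicates 1 to 3, against 1.30, 1.48 and 0.92 in vehicle replicates 1 to 3. Phenolphthalein replicate 2 lay within the vehicle values, the other phenolphthalein arrays lay below all of them, and the groups overlapped. The means were 0.57 ± 0.58 with phenolphthalein and 1.23 ± 0.29 with vehicle (SD, n = 3 each). The log2 fold change was -0.66 (SE 0.29, 95% confidence interval -1.35 to 0.02, limma adjusted p = 0.583), and its unadjusted p was 0.0566. Leaving out phenolphthalein replicate 2 gave -0.98 (limma adjusted p = 0.311), and leaving out phenolphthalein replicate 3 gave -0.41 (adjusted p = 0.672).

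The bases upstream of a gene hold part of its transcriptional control, so the 250 bases before the annotated start are shown for C3, which had lower values, and for C1r, which did not, both from RefSeq on the GRCr8 build and read along the gene's own strand. The C3 stretch is chr9:2201340-2201589, minus strand, and the C1r stretch is chr4:159098763-159099012, plus strand.
C3: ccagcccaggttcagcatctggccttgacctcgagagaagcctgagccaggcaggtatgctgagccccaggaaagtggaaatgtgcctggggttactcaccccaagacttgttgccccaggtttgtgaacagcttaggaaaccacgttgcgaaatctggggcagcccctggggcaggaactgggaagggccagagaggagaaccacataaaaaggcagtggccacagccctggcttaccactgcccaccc
C1r: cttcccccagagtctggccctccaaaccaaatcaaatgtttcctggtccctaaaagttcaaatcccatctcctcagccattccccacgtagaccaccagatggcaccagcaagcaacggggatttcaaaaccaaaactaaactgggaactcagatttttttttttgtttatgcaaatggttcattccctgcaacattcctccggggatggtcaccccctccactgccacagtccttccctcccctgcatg
Capitals were reserved for matches to 5 motifs, and there were 0 matches in the promoter windows of the 4 members in the promoter table, C3, Cfi, C1r and Cd55, searched on both strands over 250 bases before to 50 after the start. The interferon response element was searched as GAAA, any 2 bases and GAAA again, which 3.92% of all 33469 promoters hold, and the GAS element of STAT factors as TTCNNNGAA, held by 8.87%. The NF-kB forms, GGG with any 2 bases and TTTCC, and GGGANTTCC, were held by 1.53% and 1.64% of promoters, and the AP-1 element TGANTCA by 7.33%. The GC content of the upstream bases was 58.8% for C3 and 49.6% for C1r.

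Cfb encodes factor B, the protease of the alternative pathway C3 convertase. Its brighter probe read -0.63, 0.25 and -0.51 with phenolphthalein, against 0.21, 0.38 and -0.05 with vehicle, in the order of the replicates. As for C3, phenolphthalein replicates 1 and 3 lay below every vehicle array and replicate 2 lay among them. The log2 fold change was -0.48 (SE 0.24, limma adjusted p = 0.625) by this probe and -0.57 (SE 0.22, adjusted p = 0.537) by the other, whose unadjusted p was 0.0343. The 2 probes moved alike, with a root mean square difference of 0.0907 between their profiles once each was centred on its own mean. Without phenolphthalein replicate 2 the brighter probe gave -0.75 (adjusted p = 0.311), and without phenolphthalein replicate 1 it gave -0.31 (adjusted p = 0.752).

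C2 encodes the classical pathway counterpart of factor B, and the 2 genes are neighbours on chromosome 20 with no coding gene between them. Its brighter probe read -1.72, -1.99 and -1.75 with phenolphthalein, against -1.71, -0.837 and -0.996 with vehicle. The groups did not overlap, by a margin of hundredths, because vehicle replicate 1 stood beside the phenolphthalein arrays and apart from the other vehicle arrays. The means were -1.82 ± 0.15 with phenolphthalein and -1.18 ± 0.46 with vehicle (SD, n = 3 each). The log2 fold change was -0.64 (SE 0.22, 95% confidence interval -1.17 to -0.11, limma adjusted p = 0.520), with an unadjusted p of 0.0246. The other probe read -2.01, -2.20 and -2.08 with phenolphthalein, against -1.82, -1.29 and -1.42 with vehicle. It too had groups that did not overlap, a log2 fold change of -0.59 (SE 0.15, adjusted p = 0.438) and an unadjusted p of 0.0056. Groups that did not overlap, with phenolphthalein lower, were found for 1 of the 9 genes, against 10.1% of all named genes, and with phenolphthalein higher for 0, against 6.28%. By probe these were 2 of 15 lower and 0 higher, against 8.98% and 6.63% of all probes. Leaving out vehicle replicate 1 gave -0.90 for the brighter probe (adjusted p = 0.612) and leaving out vehicle replicate 2 gave -0.47 (adjusted p = 0.762). The unadjusted p of the brighter probe rose above 0.05 without phenolphthalein replicate 2 (0.0763), vehicle replicate 2 (0.0803) or vehicle replicate 3 (0.0781). For the other probe it ran from 0.000572 to 0.0223 over the arrays left out (limma, smallest adjusted p = 0.454). C2 and Cfb thus had lower means side by side on the chromosome but differed in which arrays were low: C2 was lowest in phenolphthalein replicate 2, the phenolphthalein array in which Cfb was highest.

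**Figure D2:**
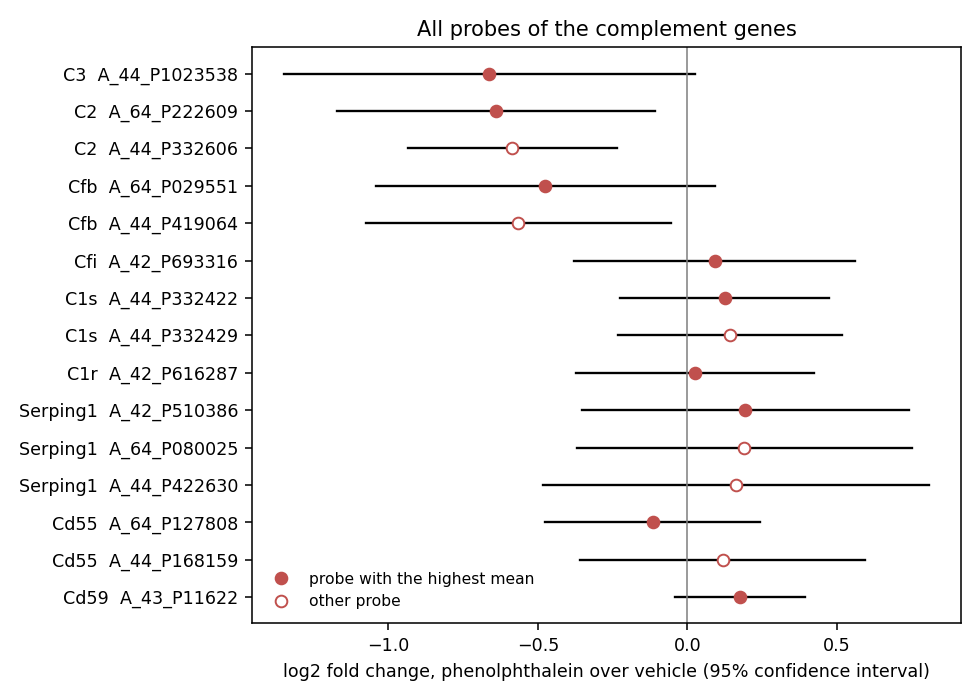
Log2 fold change of phenolphthalein over vehicle for each of the 15 probes, with its 95% confidence interval from limma; filled symbols mark the probe that stood for a gene. Only the intervals of both C2 probes and of the dimmer Cfb probe lie below 0, and the intervals of C1r, C1s, Cfi, Serping1, Cd55 and Cd59 span 0.

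C1r and C1s encode the proteases of the C1 complex, and they too are neighbours, on chromosome 4. C1r read 1.80, 2.27 and 1.59 with phenolphthalein, against 1.83, 1.98 and 1.77 with vehicle. The highest and the lowest of the 6 values were both phenolphthalein arrays, replicates 2 and 3. Its log2 fold change was 0.03 (SE 0.17, 95% confidence interval -0.37 to 0.42, limma adjusted p = 0.974). C1s gave 0.12 (SE 0.15, adjusted p = 0.835) by its brighter probe, which read 1.38, 1.70 and 1.14 with phenolphthalein and 1.26, 1.42 and 1.15 with vehicle, and 0.14 (SE 0.16) by the other. The 95% confidence interval of the brighter C1s probe ran from -0.22 to 0.47. Centred on each gene's own mean, the C1r and C1s profiles differed by a root mean square of 0.0702, the smallest of all pairs of members.

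Set against C1r within the same array, C3 was lower in every phenolphthalein array. With the vehicle mean set to 0, the log2 difference between C3 and C1r was -0.74, -0.43 and -0.89 in phenolphthalein replicates 1 to 3, against 0.09, 0.13 and -0.22 in vehicle replicates 1 to 3. The same difference for Cfb was -0.75, -0.34 and -0.42 with phenolphthalein and 0.06, 0.09 and -0.15 with vehicle. C1r was picked for this ratio after the values were seen, so it is given as a description of these arrays, with no test, and nothing is drawn from it.

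Serping1 encodes the C1 inhibitor, which inactivates C1r and C1s. Its brightest probe read 5.66, 5.20 and 5.02 with phenolphthalein, against 5.55, 4.79 and 4.96 with vehicle. Replicate 1 was the highest array of both groups, and all 3 probes of the gene gave that order. The log2 fold change was 0.19 (SE 0.23, 95% confidence interval -0.35 to 0.74, limma adjusted p = 0.836), 0.19 and 0.16 by the 3 probes. The brightest probe gave 0.0096 without phenolphthalein replicate 1, 0.037 without vehicle replicate 2, 0.12 without vehicle replicate 3, 0.33 without phenolphthalein replicate 3 and 0.42 without vehicle replicate 1. Among animals of 1 group the gene varied by a pooled SD of 0.37, against a median of 0.13 over all named genes.

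Cfi encodes factor I, the plasma protease that degrades active C3b and C4b. It read -0.22, 0.48 and -0.16 with phenolphthalein, against -0.01, -0.26 and 0.11 with vehicle, a log2 fold change of 0.09 (SE 0.20, limma adjusted p = 0.916). Phenolphthalein replicate 2 was the highest of the 6 arrays, and without it the difference turned to -0.13. The same array was the highest for C1r and C1s, which gave -0.17 and -0.023 without it.

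Cd55, decay-accelerating factor, dissociates the C3 convertases on host cells, and Cd59 blocks assembly of the membrane attack complex. The brighter Cd55 probe read -2.35, -2.00 and -1.90 with phenolphthalein, against -2.11, -2.03 and -1.76 with vehicle, and gave -0.12 (SE 0.15, limma adjusted p = 0.849). Its other probe gave 0.12 (SE 0.20, adjusted p = 0.889), so the 2 probes differed in sign, and their centred profiles differed by 0.272, the most of any gene with several probes. Cd59 read 4.32, 3.99 and 4.07 with phenolphthalein, against 4.01, 3.95 and 3.88 with vehicle. Phenolphthalein replicate 2 lay just below vehicle replicate 1 and the other phenolphthalein arrays lay above all vehicle arrays. Its log2 fold change was 0.18 (SE 0.09, 95% confidence interval -0.04 to 0.39, adjusted p = 0.636), and 0.08 without phenolphthalein replicate 1. Cd59 was the steadiest member, with a pooled SD of 0.13 within groups, while C3 varied most, at 0.46.

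**Figure D3:**
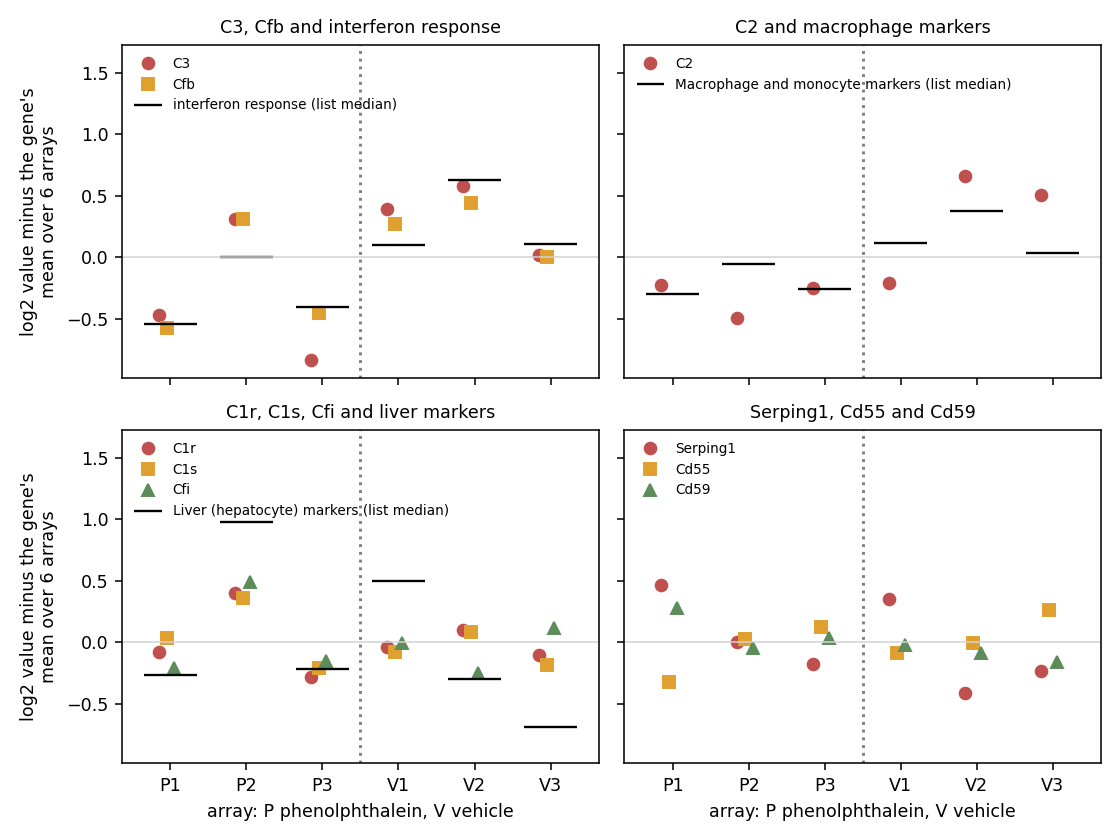
Log2 values of the members centred on each gene's mean over the 6 arrays (symbols), with the median of a marker or response list on the same scale (black bars), for phenolphthalein replicates P1 to P3 and vehicle replicates V1 to V3. C3, Cfb, C2 and the interferon response and macrophage bars are highest in V2. C1r, C1s, Cfi and the liver bar are highest in P2, and Serping1 is highest in replicate 1 of both groups.

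Profiles over the 6 arrays were compared by the root mean square difference of centred values. C3 and Cfb differed by 0.18, and C3 differed from C2 by 0.525 and from Serping1 by 0.639. The 5 named genes nearest to C3 among 12247 were Phf11 (0.0938), Apol9a (0.105), Cspg4b (0.12), Phf11b (0.13) and Clec4a1 (0.132). Of these, Cspg4b was dim, with values from -6.56 to -5.42. Phf11 read -0.18, 0.73 and -0.27 with phenolphthalein and 0.90, 1.09 and 0.57 with vehicle, with the same high phenolphthalein array as C3. These distances rest on 6 arrays of tissue that share their group difference, and they describe these arrays.

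Gene lists for responses and cell types were described by their counts and medians, with 0 genes of any list past the adjusted threshold and no test of a list. The lists were chosen with earlier results of these data known, so their counts are a description and not independent evidence. Of 25 interferon response genes tested, 13 were lower and 0 higher at an unadjusted p under 0.05, all 25 had lower values, and the median was -0.63. Over all named genes 6.01% were lower and 4.09% higher at that level, 55.6% had lower values and the median was -0.02. The smallest p-values belonged to Ifi44 (-0.77), the antiviral chaperone Rtp4 (-1.11), the antigen peptide transporter Tap1 (-0.72) and the transcription factor Irf7 (-1.01). The summed signal of the list was 124 to 145 with phenolphthalein and 140 to 174 with vehicle, and 24 of the 25 were above background on every array. Mx2 and Ifi27, the brightest of the list, weighed most in that sum and gave -0.07 and -0.32. The other, dimmer Mx2 probe gave -1.19. The array medians of the list, centred on each gene's mean, were -0.55, 0.00 and -0.40 with phenolphthalein and 0.10, 0.63 and 0.11 with vehicle. Phenolphthalein replicate 2 was thus the highest array of its group for this list as for C3 and Cfb. Vehicle replicate 2 was the highest of all 6 for all of these. That order was not particular to the interferon list. The macrophage list medians were -0.29, -0.06 and -0.26 with phenolphthalein and 0.11, 0.38 and 0.03 with vehicle. Those of the T and NK cell list were -0.39, -0.07 and -0.20 with phenolphthalein and 0.15, 0.45 and 0.11 with vehicle. The part of the interferon response in the values of C3, Cfb and C2 was not tested.

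Macrophage and monocyte markers, of cells known to transcribe C1q, properdin and C3, were lower at an unadjusted p under 0.05 for 8 of 11 and higher for 2, with a median of -0.44, where 6.01% of all named genes were lower and 4.09% higher. Their summed signal did not overlap, at 102 to 108 with phenolphthalein and 124 to 160 with vehicle. Lyz2, the brightest of the list, weighed most in that sum, gave -0.44 and had groups that did not overlap. All 11 were above background on every array. The list did not move as one. The 2 higher genes, named here for their sign, were Mrc1 (1.097) and Cd14 (0.327). Mrc1 had the largest change of the list in either direction, and its groups did not overlap. Csf1r, which was not past that level, gave -0.16 (limma unadjusted p = 0.152). Of 9 T and NK cell markers 4 were lower and 0 higher, beside the same shares of all named genes, with summed signals of 1.92 to 2.58 with phenolphthalein and 2.76 to 3.75 with vehicle. In bulk tissue, fewer cells of a type and less RNA per cell cannot be told apart. Liver markers were higher for 1 of 22 genes, F2 at 1.48, and lower for 0, beside the same shares of all named genes. Whatever their p, values were higher for 17 of the 22 liver markers and lower for 5, where 55.6% of all named genes had lower values. The median of the liver markers was 0.35, and -0.16 without phenolphthalein replicate 2. Their summed signals were 101 to 112 with phenolphthalein and 78.1 to 120 with vehicle. Cyp2e1, the brightest of the list, weighed most in these sums and gave 0.03. The centred median of the liver markers was 0.98 in phenolphthalein replicate 2 and 0.50 in vehicle replicate 1, the highest arrays of each group. It was -0.69 in vehicle replicate 3. The part of macrophages, lymphocytes or liver RNA in the members' values was not tested. Of 20 acute phase and NF-kB or STAT3 response genes 0 were higher and 0 lower at that level, with Socs3 at -0.27, Stat3 at 0.15, A2m at -0.55 and the tubular injury marker Lcn2 at 0.38.

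Beyond the members, 45 complement genes were listed by role, of which 39 were on the array and 31 were tested. At an unadjusted p under 0.05, 2 were lower and 1 higher, and 0 passed the adjusted threshold (limma, smallest adjusted p = 0.315). Their median log2 fold change was -0.02. With 6.01% of all named genes lower and 4.09% higher at that level, 2 and 1 of 31 are near the share over all genes, and the genes named here were picked by their p within a role.

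The recognition molecules had 1 gene lower and 0 higher at that level among 9 tested, with a median of -0.25. That median was -0.14 without phenolphthalein replicate 3, -0.15 with genes above background on all 6 arrays and -0.10 with normexp background correction. C1qa, a chain of C1q, read 2.07, 2.27 and 1.94 with phenolphthalein, against 2.23, 2.65 and 2.63 with vehicle. Vehicle replicate 1 lay within the phenolphthalein range and the other vehicle arrays above it, and the log2 fold change was -0.41 (SE 0.14, limma adjusted p = 0.500). The other C1qa probe gave -0.37 (SE 0.11, adjusted p = 0.487), and its groups did not overlap. The partner chain C1qc had a lower value (-0.30, SE 0.13), as had C1qb (-0.25, SE 0.14), which was added as the remaining chain after its values were seen. The ficolins, soluble lectins that bind microbial sugars, were dim: Fcnb gave -1.49 (SE 0.67), with vehicle replicate 2 at -0.93 and the other arrays between -4.59 and -2.97, and Fcna gave -0.66 (SE 0.35) and was above background on 2 arrays of each group.

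Among 4 cascade components tested, Cfp, properdin, which stabilises the alternative pathway convertase and is made largely by myeloid cells, had an unadjusted p of 0.000222. Its single probe read -2.08, -1.87 and -2.03 with phenolphthalein, against -1.38, -1.37 and -1.36 with vehicle. The groups did not overlap, with a log2 fold change of -0.62 (SE 0.09, 95% confidence interval -0.83 to -0.41, limma adjusted p = 0.315). C4a, a source of C4b, gave -0.19 (SE 0.12), and signal from the near-identical C4b gene cannot be told apart from it. Factor D (Cfd) gave 0.12 (SE 0.38) and the C1r-like protease C1rl 0.05 (SE 0.29).

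The terminal pathway genes, which form the membrane attack complex, had 0 of 3 tested genes at that level, with C6 at 0.16 (SE 0.24), C8b at -0.10 (SE 0.18) and the dim C9 at 0.07 (SE 0.71). Of 8 inhibitors 1 was higher and 0 lower. This was Cd46, a membrane cofactor for C3b cleavage, whose dim probe read -3.73, -3.94 and -4.12 with phenolphthalein, against -4.55, -4.87 and -4.61 with vehicle. The groups did not overlap, and the log2 fold change was 0.75 (SE 0.18, limma adjusted p = 0.420). Cr1l, known as Crry, the convertase inhibitor of rodent cell surfaces, gave 0.14 (SE 0.09) with both probes higher. Cpn1, a subunit of the carboxypeptidase that inactivates C3a and C5a, gave -0.27 (SE 0.18). Of 7 genes listed as receptors 0 were higher and 0 lower at that level. The C3a receptor C3ar1 gave -0.38 (SE 0.21) and the leukocyte integrin chain Itgb2 -0.37 (SE 0.22). C1qbp gave 0.08 (SE 0.05) and Cd93 -0.14 (SE 0.15). These are the probes that stood for each gene. The other C3ar1 probe gave -0.47 (SE 0.17, limma unadjusted p = 0.0291, adjusted p = 0.529), with groups that did not overlap.

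**Figure D4:**
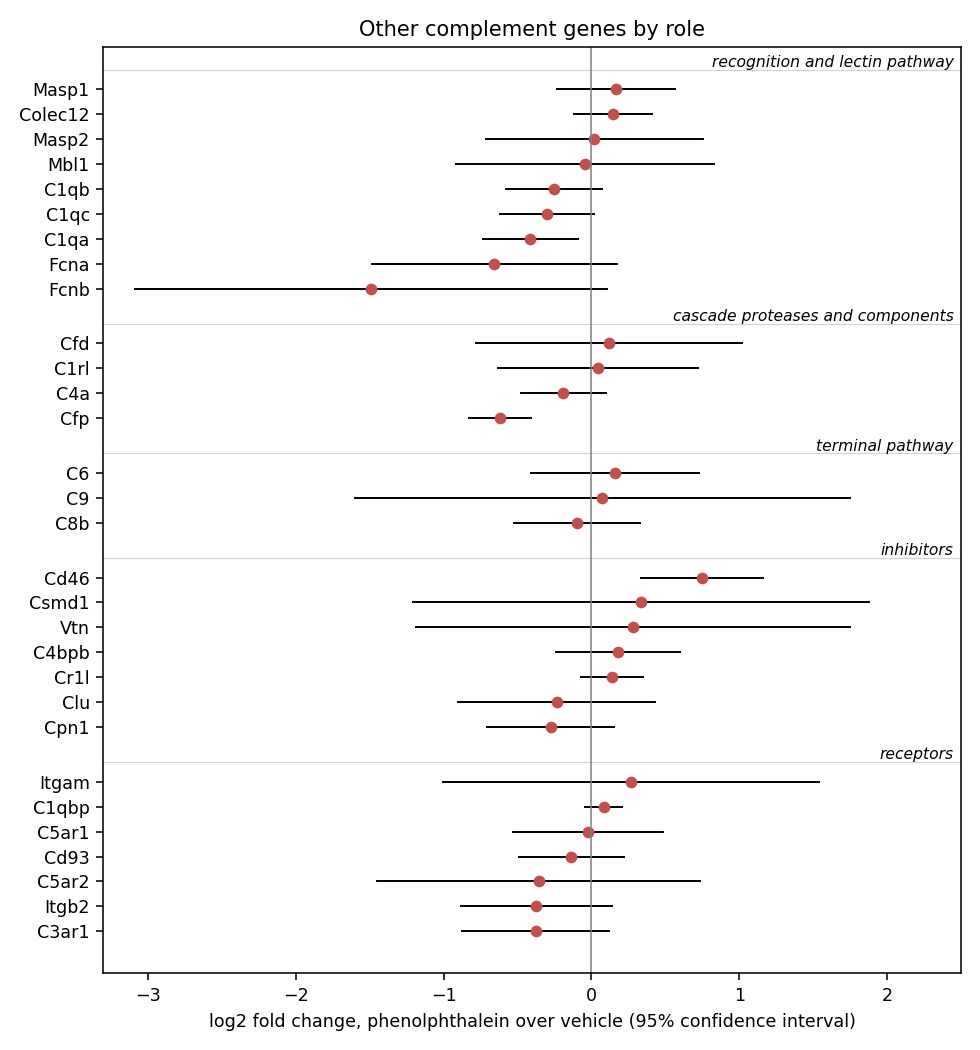
Log2 fold change of phenolphthalein over vehicle, with its 95% confidence interval from limma, for the other complement genes tested and reported here, grouped by role and ordered by value within a role. The intervals of C1qa and Cfp lie below 0 and that of Cd46 above 0, and that of C9 is among the widest.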

How the data were processed

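Scanner files of 6 Agilent 1-colour arrays were used. The deposited intensity per spot was background-subtracted and detrended within each array by Agilent Feature Extraction 10.7.1.1, per the file headers (10.7 in the submitters' processing notes), with no normalization between arrays. The deposited value table holds a ratio to the array's 75th percentile, as found by comparison with the scanner files (SD of the log2 difference 0.00426 to 0.0072). Each of its columns matched another replicate's file of the same group, so which animal carries which replicate number is uncertain. All its columns were used (0 left out). The design is annotated on rn4, and GRCr8 names were matched by accession without versions (27460 of 61657 probes).

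Log2 intensity minus the log2 75th percentile was tested with limma 3.58.1 in R 4.3.3 (intensity trend, two-sided, Benjamini-Hochberg over all tested probes, threshold 0.05). Probes had to be well above background on 3 or more of the 6 arrays, outlier spots were set to missing, and the probe with the highest mean stood for a gene. The fit was tested on simulated data. The number of arrays limits the precision. The members and lists were chosen with earlier results of these data known. All members were named, with up to 4 genes of smallest p per role or list and the 5 nearest to C3. Other settings are given in the closing section. The normexp alternative used the median spot signal, since the mean spot signal it was planned on is not in the files used here. A listed complement inhibitor counted among those tested is not reported here by name.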

Additional observations from a re-analysis of the deposited data

How the results depend on the processing

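Of the 12 settings that kept all 6 arrays, each gave 0 probes higher, 0 lower and 0 members past the adjusted threshold. Leaving out 1 array gave 0 to 1 probes higher, 0 to 1 lower and 0 members. Those probes were Ubd (lower) and Atp7a (higher) without phenolphthalein replicate 2, Prl3d4 (higher) without phenolphthalein replicate 3 and 1 unnamed probe (lower) without vehicle replicate 1. At an unadjusted p under 0.05, 1 member was lower and 0 were higher. With normexp 1 was higher (Cd59), without a filter on dim probes 2 were lower, and leaving out 1 array gave 0 to 2 lower and 0 to 1 higher, with 0 lower without vehicle replicate 2 and 2 lower and 1 higher without phenolphthalein replicate 2. With the replicate block 3 members were lower, C3, C2 and Cfb. The deviations of animals with one number in both groups were hardly related (correlations -0.00852, -0.00914 and 0.0431), so the numbers were not taken to pair them. With the slide as a random block (correlation 0.0878), C2 gave -0.64 (limma adjusted p = 0.71) and C3 -0.67 (adjusted p = 0.751). C3, C2 and Cfb were below 0 under every setting, with C3 between -0.98 and -0.41, the brighter C2 probe between -0.90 and -0.47 and the brighter Cfb probe between -0.75 and -0.31. Values near 0 changed sign. The median over both Cd55 probes was 0.000571, where the brighter probe alone gave -0.12. Over arrays left out, Cfi ranged from -0.13 to 0.22, C1r from -0.17 to 0.17, the C1s probes from -0.023 to 0.26 and -0.024 to 0.27, the brightest Serping1 probe from 0.0096 to 0.42, the dimmest from -0.055 to 0.43 and the Cd55 probes from -0.21 to 0.016 and -0.055 to 0.21. The cause was not tested.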
